A study of Mus musculus with 24 samples.

Results

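The genes described are 9 core components of the Hedgehog signalling pathway in mouse cells: the ligand gene Shh, the receptor gene Ptch1, the ligand-binding inhibitor gene Hhip, the co-receptor genes Boc and Cdon, the signal transducer gene Smo and the transcription factor genes Gli1, Gli2 and Gli3. They were picked by name, and all 9 had values in neural progenitor cells (NPC, 16024 genes in the table) and 8 in mouse embryonic stem cells (mESC, 17501 genes); Shh in mESC was not analysed here. RNA sequencing covered 24 libraries, with 2 biological samples for each of 6 genotypes in each cell type. The genotypes were wild type (WT), knockout of Htt (KO) and heterozygous knock-in of Htt alleles with 20, 50, 92 or 111 CAG repeats, named Q20, Q50, Q92 and Q111. Htt encodes huntingtin, the protein altered in Huntington's disease, and the series title asks how the length of the repeat relates to splicing. The 92 repeats of Q92 are those of the titles, whereas the growth protocol and the table columns have 89.

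The mESC were grown in serum with leukemia inhibitory factor on irradiated mouse embryonic fibroblast feeders, and NPC were derived from mESC in N2B27 medium and kept in FGF and EGF on laminin. No agent acting on the Hedgehog pathway is named in the labels. Each knock-in allele is carried by its own line, so allele length and line cannot be told apart, and the origin of the WT and KO lines is not given in the sources used here. The targeted gene Htt reached 138.6 and 68.5 CPM in the mESC libraries labelled KO, against 124.2 and 113.2 in WT, so the library labelled mESC KO replicate 1 was not lower than WT. In NPC, Htt was 100.1 and 94.9 CPM in KO and 137.3 and 176.9 in WT. Values are the authors' CPM, read counts scaled to a common library size. The depth recovered from them was between 58546211 and 81502284 reads in the mESC libraries and between 48525333 and 118038952 in those of NPC.

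Hedgehog ligands are secreted proteins that bind the receptor Patched1 on the receiving cell. Unbound Patched1 holds the membrane protein Smoothened, the product of Smo, inactive; ligand binding lifts this block and Smoothened then acts through the primary cilium on the GLI proteins. Boc and Cdon present the ligand to Patched1, and Hhip sequesters it. Ptch1, Hhip and Gli1 are textbook target genes that the pathway switches on, while Gli3 acts largely as a repressor when the signal is absent. In the developing neural tube a ventral source of Shh patterns progenitors, inducing genes such as Nkx2-2, Nkx6-1 and Olig2 and repressing Pax3 and Pax7.

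Levels are compared between genes per kb of annotated exon. In mESC the median over 12 libraries was highest for Smo, at 7.96 CPM per kb, followed by Gli1 at 5.32 and Ptch1 at 4.99. Hhip was lowest in mESC at 0.635 CPM per kb. In NPC, Smo was again highest at 30.9 CPM per kb, ahead of Ptch1 at 9.15, Boc at 8.75 and Cdon at 6.73. Gli3 had 3.26, Hhip 0.657 and Gli2 0.623 CPM per kb in NPC. Gli1 and Shh stood at the bottom of the NPC order, with medians of 0.0623 and 0.0136 CPM per kb. The tables of both cell types were scaled separately, and levels were not tested between them.

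**Figure D1:**
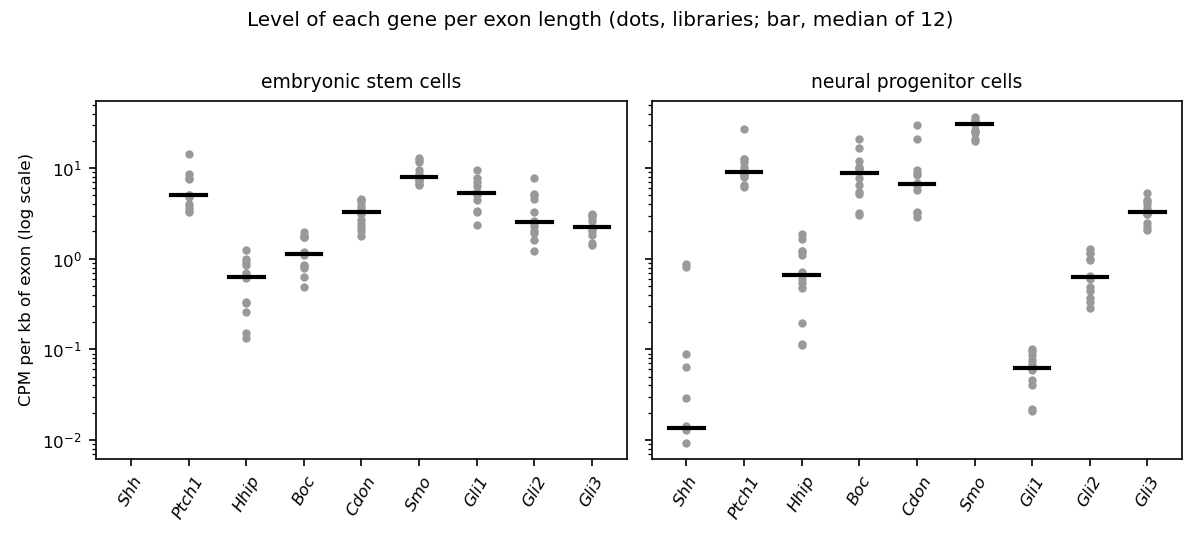
Level of each gene in CPM per kb of exon on a log axis, in the 12 mESC libraries (left) and the 12 NPC libraries (right); dots are libraries and bars medians, and the 4 NPC libraries with no Shh read are not drawn. Gli1 lay at 5.32 CPM per kb in mESC and at 0.0623 in NPC, where Smo was highest at 30.9.

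Shh, the ligand, was detected above a trace in a single NPC line. On GRCm38 it lies at chr5:28456815-28467256 on the minus strand. Shh was 2.52 and 2.28 CPM in the Q20 libraries (203 and 213 reads). WT had 0 and 0.0368 CPM (0 and 3 reads) and KO 0 and 0.0265 CPM (0 and 3 reads). In the other knock-in lines Shh was 0 and 0.0823 CPM in Q50, 0.182 and 0.25 in Q92, and 0.0406 and 0 in Q111. Both Q20 libraries were above every other NPC library, and Q92, with 11 and 16 reads, was next.

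From pooled reads, Shh in Q20 was 111 times the WT level, with a 95% exact interval of 37.6 to 538 that covers counting error only. The same ratio was 171 (58.3 to 835) against KO, 46.8 (22.5 to 117) against Q50, 11 (7.48 to 17) against Q92 and 115 (39.2 to 561) against Q111. On a log2(CPM + 1) scale, where changes of low genes come out too small, Shh rose in Q20 against WT by 1.74 (SE 0.10, limma adjusted p = 1.28e-05). It fell relative to Q20 by 1.71 in Q50, by 1.48 in Q92 and by 1.74 in Q111 (limma adjusted p = 1.28e-05, 2.32e-05 and 1.31e-05). These comparisons all share the Q20 libraries. Only Q20 had at least 1 CPM, so Shh entered the tests through the libraries in which it was high. With WT in place of Q20 as the reference, the 3 longer alleles differed by 0.03, 0.26 and 0.00, and none was called. Of the 2847 exonic bases of Shh, 807 overlap annotated genes of the opposite strand, and since the use of strand in counting is not given in the sources used here, reads from those bases cannot be assigned to a strand.

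Markers of other cell types also differed in the Q20 NPC libraries. The summed level of the 6 pluripotency markers with NPC values, of 10 listed, was 108 and 106 CPM in Q20 and 4.76 to 26.6 CPM in the other 10 libraries. Pou5f1, a pluripotency factor, made up most of it, with 90.05 and 87.4 CPM in Q20 and at most 0.41 CPM elsewhere. Without Pou5f1, the Q20 sums lay within the range of the other libraries. Zfp42, Utf1, Dppa5a and Dppa4 of that list were not analysed here in NPC. The 10 neural progenitor markers summed to 4193 and 4349 CPM in Q20 and to 5547 to 9675 CPM in the others. The 7 astrocyte markers summed to 3990 and 3462 CPM in Q20 and to 536 to 2679 CPM in the others, and the 6 oligodendrocyte lineage markers with values, of 7, to 480 and 492 CPM in Q20 and 79.7 to 438 CPM in the others. Stmn2, a neuronal gene, was 103 and 128 CPM in Q20 and at most 5.51 CPM elsewhere, while the sum of all 8 neuronal markers in Q20 (788 and 964 CPM) lay within the range of the others (748 to 1631 CPM). The part of these cell type markers in the values of Shh, Smo or the other genes was not tested, and in bulk RNA fewer cells of a type and less RNA per cell cannot be told apart.

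Among genes for the release of Hedgehog ligands and for its other ligands, Scube1 was, like Shh, highest in Q20. The secreted products of the Scube genes help release the lipid-bearing ligand. Scube1 was 10.4 and 8.36 CPM in Q20 and 0.858 and 0.54 in WT. Like Shh, it had at least 1 CPM only in the Q20 libraries and entered the tests through them, so its calls are not counted here. Of the 6 other genes of the list of 8 that were tested in NPC, 1 rose in Q20 against WT (background 14.5% of all tested genes). Scube1 stayed between 0.0812 and 0.588 CPM in the longer alleles, with all 6 libraries under both Q20 libraries. Scube3 was 6.93 and 8.31 CPM in Q20 and 3.61 and 2.61 in WT (difference 1.07, adjusted p = 0.0151). Against Q20, Scube3 fell in all 3 longer alleles. Dhh, a ligand gene, rose in Q50 (8.61 and 9.32 CPM) and in Q92 (3.70 and 3.03 CPM) over Q20 (0.522 and 0.536 CPM), by 2.70 and 1.51 (limma adjusted p = 0.00235 and 0.0275). Hhat, which encodes the enzyme that palmitoylates the ligand, and Disp2 fell in Q92 against Q20, giving 4 of 6 called there (1 higher, 3 lower, background 25.8%). Of the same 6, 2 were called in Q50 (background 18.8%) and 1 in Q111 (background 28.3%).

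**Figure D2:**
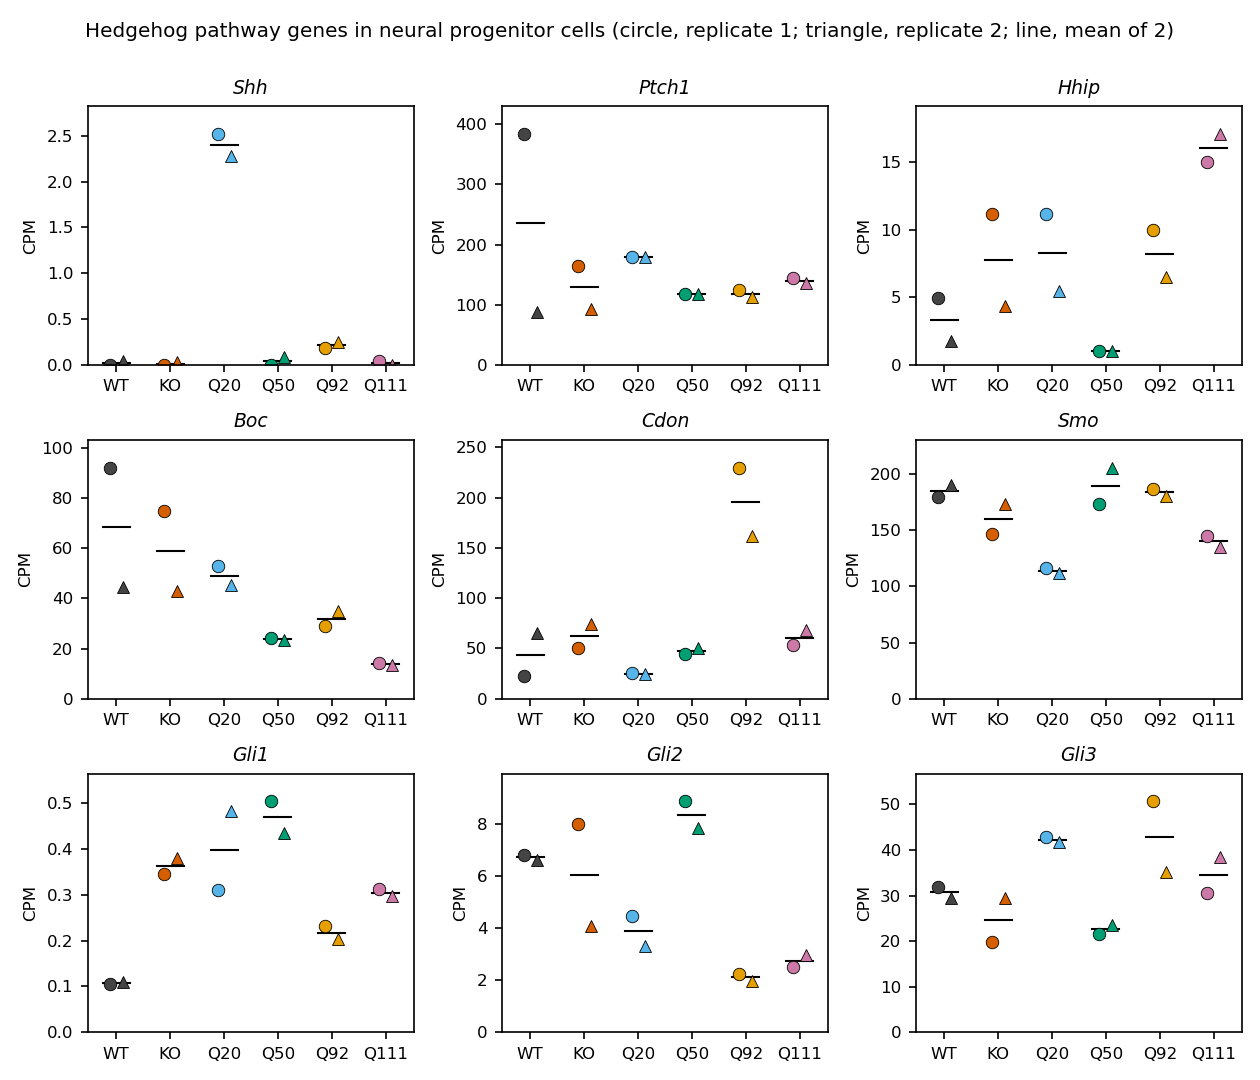
CPM of the 9 Hedgehog genes in each NPC library, with circles for replicate 1, triangles for replicate 2 and a line at the mean of both; each panel has its own axis from 0. Shh stood out in Q20 (2.52 and 2.28 CPM), Cdon in Q92 (230 and 162 CPM) and Hhip was lowest in Q50 (1.02 and 1.05 CPM).

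Ptch1, the receptor gene and a pathway target, lies at chr13:63508328-63573598 on the minus strand. In NPC it was 384 and 87.1 CPM in WT and 164 and 93.5 CPM in KO. It was 180 and 179 CPM in Q20, 118 and 118 in Q50, 124 and 113 in Q92, and 144 and 136 in Q111. The WT libraries were the highest and the lowest of the 12, and the knock-in lines lay between them with close replicates. Ptch1 passed the test in no NPC comparison of the main fit, where all 12 libraries, the unlike WT pair included, share the spread. The difference of Q50 from Q20 was -0.60 (SE 0.57, limma adjusted p = 0.528). Fits of only the libraries of both groups called 29.7%, 46.6% and 50.8% of all genes in Q50, Q92 and Q111 against Q20. In those fits Ptch1 was called lower than in Q20 in each (limma adjusted p = 0.0106, 0.00795 and 0.0136). Without WT replicate 1 it was called higher in Q20 than in WT, and without WT replicate 2 lower in Q20 than in WT and lower in KO than in WT. WT replicate 1 also stood apart in Ccnd1, a cyclin gene, with 63.4 CPM against 1167 in WT replicate 2.

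Hhip, which encodes a membrane-anchored protein that binds and neutralises the ligand, lies at chr8:79965851-80058006 on the minus strand. It was 4.92 and 1.78 CPM in WT, 11.2 and 4.33 in KO, and 11.1 and 5.44 in Q20. The Q50 libraries had 1.02 and 1.05 CPM, those of Q92 9.97 and 6.49, and those of Q111 15.0 and 17.1. Q50 was the lowest and Q111 the highest genotype, and neither overlapped any other genotype. Hhip fell in Q50 against Q20 by 2.12 (SE 0.50, limma adjusted p = 0.0201), and this call was lost without Q20 replicate 1 or without either Q50 library. In Q111 the difference from Q20 was 0.94 (SE 0.50, adjusted p = 0.184). The Q50 libraries also had the highest summed level of 10 fibroblast and mesenchyme markers, 1106 and 1121 CPM against 154 to 388 CPM in the other lines, and its part in the Hhip value was not tested.

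Boc, a co-receptor gene at chr16:44485049-44558897 (minus strand), was lower in the longer alleles. It was 92.2 and 44.5 CPM in WT, 74.7 and 43.1 in KO and 52.9 and 45.2 in Q20. Values were 24.3 and 23.2 CPM in Q50, 28.8 and 34.8 in Q92 and 14.3 and 13.5 in Q111. All 6 libraries of the longer alleles lay under every library of WT, KO and Q20, and Q111 was the lowest. Boc fell in Q111 against Q20 by 1.75 (SE 0.35, limma adjusted p = 0.00863), a call lost without Q20 replicate 1 or without Q111 replicate 2. The differences of Q50 and Q92 from Q20 were -1.01 and -0.61 (adjusted p = 0.0845 and 0.228).

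Cdon, the related co-receptor gene at chr9:35421128-35507652 (plus strand), was set apart by Q92. Its Q92 libraries had 230 and 162 CPM, and the other 10 had 22.5 to 73.9 CPM. Q20 was at the low end, with 25.4 and 24.4 CPM, as was WT replicate 1 with 22.5 CPM against 65.0 in WT replicate 2. Cdon rose in Q92 against Q20 by 2.91 (SE 0.43, limma adjusted p = 0.00188), a ratio of the means of 7.87. The differences in Q50 and Q111 were 0.90 and 1.24 (adjusted p = 0.201 and 0.0642). Boc and Cdon were thus lowest and highest in different lines, Boc in Q111 and Cdon in Q92.

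Lrp2, which encodes a large endocytic receptor that takes up Shh, was the single other receptor-side gene of the 2 listed that was tested in NPC. It was 97.7 and 96.7 CPM in Q20 and 36.6 and 19.3 CPM in WT, and 43.1 and 50.5, 27.5 and 24.5, and 20.5 and 20.8 CPM in Q50, Q92 and Q111. Both Q20 libraries were higher than all others. Lrp2 rose in Q20 against WT by 1.83 (SE 0.29, limma adjusted p = 0.0036) and fell in all 3 longer alleles against Q20, by 1.04, 1.86 and 2.18.

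Smo, the transducer gene at chr6:29735503-29761365 (plus strand), was the most even of the genes in NPC, with 1.85 times between its highest and lowest library. It was 180 and 191 CPM in WT, 147 and 173 in KO and 117 and 112 in Q20. The longer alleles had 174 and 206 CPM in Q50, 187 and 181 in Q92, and 145 and 136 in Q111. Both Q20 libraries were below the other 10. Smo fell in Q20 against WT by 0.69 (SE 0.13, limma adjusted p = 0.00807) and rose against Q20 by 0.72 in Q50 (adjusted p = 0.00564) and by 0.68 in Q92 (adjusted p = 0.00619). The call against WT was lost without Q20 replicate 2 and in a fit of the WT and Q20 libraries alone. With WT as the reference Smo was not called in Q50 or Q92, and the Q92 difference was -0.01. Shh was highest and Smo lowest in the same line, Q20.

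Of 20 genes for signal transduction between Smo and the GLI proteins, such as Sufu, Kif7 and the protein kinase A genes, all were tested in NPC. Between pairs of genotypes 0 to 5 were called, and 7 differed over the 4 knock-in lines (background 41.0%). Cul3, a ubiquitin ligase scaffold gene, was 117 and 131 CPM in Q20 and 175 and 175 in WT, and fell in Q20 by 0.50 (limma adjusted p = 0.0389). Cul3 rose against Q20 by 0.98 in Q50, 0.47 in Q92 and 0.78 in Q111. Evc, whose product binds Smoothened at the base of the cilium, fell in Q20 against WT by 1.27 and rose in Q111 against Q20 by 1.49 (adjusted p = 0.0167 and 0.00573). Its partner gene Evc2 rose in Q111 against Q20 by 1.33 (74.8 and 73.3 against 28.0 and 29.7 CPM, limma adjusted p = 0.00537). Mgrn1 and Dzip1 fell in the same comparison, which gave 3 higher and 2 lower (background 28.3%). Q50 had 1 in each direction (background 18.8%) and Q92 1 higher (background 25.8%), shares of 20 that lie under the background in each of these 3 comparisons. Sufu and Kif7 passed the test in none of these pairs.

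The Gli genes were expressed unequally in NPC. Gli1 (chr10:127329882-127341974, minus strand), a target of the pathway, stayed under 1 CPM in all 12 libraries and was left out of the tests. Its libraries had 0.105 and 0.11 CPM in WT, 0.345 and 0.379 in KO, 0.311 and 0.482 in Q20, 0.503 and 0.435 in Q50, 0.231 and 0.203 in Q92, and 0.311 and 0.298 in Q111, from 6 to 45 reads each. WT was lowest and Q50 highest, and Gli1 did not follow Shh across the lines. Without the filter on low values Gli1 was called higher in Q20 than in WT. For Gli1, 327 of 4995 exonic bases overlap genes of the opposite strand.

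Gli2 (chr1:118834132-119053619, minus strand), the main activator among the GLI proteins, was 6.83 and 6.64 CPM in WT, 8.0 and 4.08 in KO, and 4.49 and 3.31 in Q20. It was 8.88 and 7.85 CPM in Q50, 2.26 and 1.99 in Q92, and 2.52 and 2.99 in Q111. Q92 and Q111 lay under all other libraries. Gli2 rose in Q50 against Q20 by 0.94 (SE 0.27, limma adjusted p = 0.043), but edgeR on the recovered reads, a smaller pseudocount, no filter and the loss of any of the 4 libraries each ended the call. Gli3 (chr13:15463235-15730026, plus strand), the repressor, was 32.0 and 29.5 CPM in WT, 19.8 and 29.6 in KO, 42.8 and 41.7 in Q20, 21.6 and 23.6 in Q50, 50.7 and 35.1 in Q92, and 30.5 and 38.5 in Q111. Gli3 fell in Q50 against Q20 by 0.87 (SE 0.24, limma adjusted p = 0.0384), a call also lost without any of the 4 libraries. The mean over both libraries was highest for Gli2, and lowest for Gli3, in Q50.

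Set against the background of all tested genes, the members called were 2 of 8 in Q20 against WT (Shh and Smo, 25%, where 14.5% of all 13206 genes were called). In Q50 against Q20 they were 5 of 8 (Smo and Gli2 higher, Shh, Gli3 and Hhip lower, background 18.8%). In Q92 against Q20 they were 3 of 8 (Smo and Cdon higher, Shh lower, background 25.8%), and in Q111 against Q20 2 of 8 (Shh and Boc lower, background 28.3%). Since Shh entered through Q20, the 7 others gave 1, 4, 2 and 1. Among the 7 others the middle difference was that of Boc (-0.38), Ptch1 (-0.60), Gli3 (-0.0018) and Gli3 (-0.29) in these 4 comparisons in turn. The medians over all genes were -0.02, 0.00, 0.06 and 0.03. In KO against WT, limma called 0 of 8 at a background of 1.42%, with 0 at an unadjusted p under 0.05 and 0 by edgeR. That count was 2 without WT replicate 2 (Cdon and Ptch1), where 11.9% of all genes were called. The count in Q20 against WT was 4 without WT replicate 1 (background 21.6%) and 1 without Q20 replicate 2 (background 8.34%). In Q50 against Q20 it was 2 to 3 without any 1 of the 4 libraries (background 9.53% to 10.8%). In Q111 against Q20 it was 1 without Q20 replicate 1 (background 12.1%) or Q111 replicate 2 (background 11.9%). Against WT in place of Q20, 0 members were called in Q50 (background 6.62%), 2 in Q92 (Cdon and Gli2, background 8.66%) and 3 in Q111 (Boc, Gli2 and Hhip, background 16.6%).

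**Figure D3:**
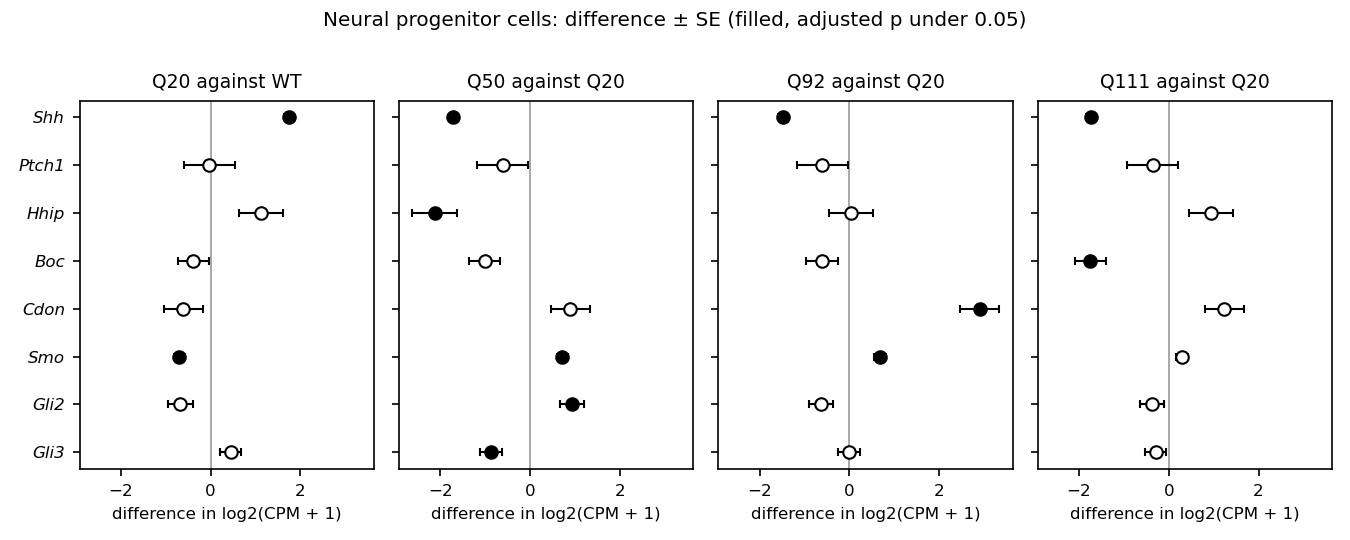
Difference in log2(CPM + 1) with its standard error for the 8 tested Hedgehog genes in 4 NPC comparisons; filled points had a limma adjusted p under 0.05. Shh was filled in all 4 panels, at 1.74, -1.71, -1.48 and -1.74. It had at least 1 CPM only in Q20 and entered the tests through those libraries, which all 4 panels share.

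Over the 4 knock-in lines taken in any order, 6 of the 7 members other than Shh differed by the limma F test (background 41.0%); Shh, which entered through Q20, was called as well. Adjusted p was 0.00569 for Cdon, 0.00718 for Smo, 0.00804 for Hhip, 0.00843 for Gli2, 0.0217 for Boc and 0.0488 for Gli3. Ptch1 was not called in this fit, but it was in 1 of 13 alternatives. These alternatives include a fit of only the 8 knock-in libraries, without the unlike WT pair, where 68.0% of all genes were called. The call of Gli3 was lost without any single knock-in library other than Q92 replicate 2. That of Boc was lost without either Q20 or either Q111 library, and that of Gli2 without Q50 replicate 1. A straight line on repeat length, given over the 91 repeats from 20 to 111, was called for 1 of 8 members (background 22.0%). Boc fell by 1.27 (SE 0.38, limma adjusted p = 0.0463). The Boc slope was called in 8 of 17 alternatives. It was no longer called with 1 mean value per line, with no filter or with the replicate block. The call was also lost without the whole Q20 or Q111 line, and without either library of Q20 or of Q111. Shh had a slope of -1.41 (adjusted p = 0.0519), which became 0.05 without the Q20 line, and Cdon one of 1.90 (adjusted p = 0.0792). The members thus differed between lines, mostly without following the order of the lengths.

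Genes that Hedgehog signalling is known to raise were followed in NPC through a list of 15, of which 13 were tested and to which Ptch1, Hhip and Gli1 were not counted. Hsd11b2 had at least 1 CPM only in Q20 (1.57 and 2.09 CPM, at most 0.368 elsewhere) and entered the tests through it, so the counts are of the 12 others. In Q20 against WT 4 rose and 1 fell (background 14.5%). Nkx6-2, a ventral progenitor factor gene, was 12.3 and 10.5 CPM in Q20 and 4.27 and 0.97 in WT, a rise of 1.94 (SE 0.42, limma adjusted p = 0.0175). Nkx2-2, a factor gene of the most ventral progenitors, was 18.4 and 15.0 against 3.71 and 3.76 CPM (rise 1.89, adjusted p = 0.039). Sfrp1, a secreted Wnt inhibitor gene, was 101 and 124 against 16.8 and 17.8 CPM (rise 2.63, adjusted p = 4.54e-05), and Nkx6-1 also rose. Olig2, a factor gene of the motor neuron progenitor domain, moved the other way, with 31.2 and 60.5 CPM in Q20 and 434 and 195 in WT (fall 2.72, limma adjusted p = 0.0269). Against Q20, 5 of 12 were called in Q50 (background 18.8%), 7 in Q92 (background 25.8%) and 6 in Q111 (background 28.3%). Of these, 4 were lower in each, and Sfrp1 and Nkx6-2 were lower in all 3. Nkx6-1 was 23.6 and 25.6 CPM in Q92 against 2.00 and 4.09 in Q20 (rise 2.71, adjusted p = 0.000203), and at most 0.149 CPM in Q50 and Q111. Ccnd1, which many growth signals raise, was 130 and 140 CPM in Q20 and 1677 to 2298 CPM in the longer alleles, where it rose in all 3 comparisons. In KO against WT 2 were called (background 1.42%): Prdm1 was 26.8 and 19.6 against 2.00 and 6.35 CPM (rise 2.35), and Sfrp1 fell by 1.06. The median difference of all 13 was 0.55 in Q20 against WT and -0.34, -1.02 and -0.33 in Q50, Q92 and Q111 against Q20. The medians over all genes are given above. The median of the 13 includes Hsd11b2, which entered through Q20, and was not computed without it. Olig2 is also among the neural progenitor markers.

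Of 10 genes of dorsal neural identity, which Hedgehog signalling restrains, 5 were tested in NPC. Pax3 was 3.76 and 2.27 CPM in Q20 and 20.1 and 11.5 in WT, a fall of 2.04 (SE 0.27, limma adjusted p = 0.00132). Pax7, its close relative, rose in the same comparison, with 2.11 and 2.10 against 0.28 and 0.43 CPM (rise 1.20, limma adjusted p = 0.00291). These 2 were the genes of the list called there (background 14.5%). Both fell in Q92 against Q20, to 0 and 0.0782 CPM for Pax3 and 0.314 and 0.344 for Pax7, and in Q111, to 0.135 and 0.184 CPM for Pax3 and 0 and 0 for Pax7. No other gene of the list was called in Q92 or Q111 (background 25.8% and 28.3%). In Q50 against Q20 Pax7 fell by 0.78, whereas Dbx2, an intermediate progenitor factor gene, rose by 2.01 (169 and 146 against 25.8 and 55.9 CPM, limma adjusted p = 0.0224), which made 1 in each direction (background 18.8%). Pax7 rose in KO against WT by 1.85 (4.59 and 3.26 CPM, adjusted p = 0.00357), the 1 gene of this list called there (background 1.42%).

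In mESC, no member passed the limma test between genotypes in the main fits, which had no term for the replicate number. The counts were 0 of 8 in KO against WT (background 0.0144%), in Q20 against WT (0.323%), in Q50 against Q20 (0.00719%), in Q92 against Q20 (0.00719%) and in Q111 against Q20 (0.0%). The F test over the knock-in lines (0.0719%) and the slope on repeat length (0.0%) also gave 0 of 8. The edgeR fits, also without a replicate term, called 0 in each of these 7 comparisons. At an unadjusted p under 0.05 there were 2, 2, 1, 0, 0, 1 and 0 members in that order. With so few genes called in mESC by the main fits, these counts say little about the members. With the replicate number as a block, limma called 2 of 8 in Q20 against WT (Hhip and Boc, background 10.6%). It called 0 in the other comparisons.

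Gli2 had the largest differences between genotypes in mESC among the Gli genes. It was 17.9 and 17.1 CPM in WT, 53.5 and 31.6 in KO and 8.27 and 13.2 in Q20. It was 35.2 and 35.0 CPM in Q50, 14.1 and 22.6 in Q92, and 11.0 and 15.9 in Q111. KO and Q50 lay above the other 4 genotypes. The difference between Q50 and Q20 was 1.65 (SE 0.36, limma adjusted p = 0.384), and that of KO from WT 1.19 (SE 0.36, adjusted p = 0.985), where the library labelled KO replicate 1 did not have low Htt. KO had the highest mean in mESC, followed by Q50, and Q50 the highest in NPC.

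Hhip and Boc were the members whose call in mESC depended on the pairing of libraries. Hhip was 1.20 and 2.37 CPM in WT and 11.2 and 9.08 in Q20, and Boc 8.82 and 7.68 CPM in WT and 4.89 and 2.77 in Q20. Neither gene's groups overlapped, as for 39.2% of all tested genes. Without a block on the replicate number the Q20 minus WT difference of Hhip was 2.03 (SE 0.61, limma adjusted p = 0.21) and that of Boc -0.97 (SE 0.45, adjusted p = 0.439). With the replicate block, which the correlations of replicate differences called for in mESC, both were called (adjusted p = 0.0278 for Hhip and 0.0362 for Boc). All genes called rose from 45 to 1475 under that block, so the shift was not particular to these members. The sum of the fibroblast markers with mESC values, 9 of 10 listed, was 65.5 and 97.9 CPM in Q20 and 22.0 and 34.1 CPM in WT, and its part in the difference was not tested.

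In mESC more members were called between replicate numbers than between genotypes, but the tests were unlike. Replicate numbers were compared as 6 against 6 libraries within genotypes, and each pair of genotypes as 2 against 2 without a replicate term. What the replicate number stands for is not given in the sources used here. The comparison between replicate numbers was chosen after its values were seen. Of 8 members, 6 differed between replicate 2 and replicate 1 over the 6 genotypes (2 higher, 4 lower), where 43.3% of all genes did. Ptch1 fell by 0.89 (SE 0.16, limma adjusted p = 0.0035), from 109, 205, 70.7, 111, 123 and 67.8 CPM in replicate 1 to 46.8, 70.8, 49.3, 71.3, 56.6 and 52.6 CPM in replicate 2 of WT, KO, Q20, Q50, Q92 and Q111. It was higher in replicate 1 in 6 of 6 genotypes. Cdon fell by 0.75 (adjusted p = 0.00149), Boc by 0.62 (adjusted p = 0.00665) and Smo by 0.37 (adjusted p = 0.0337), each higher in replicate 1 in 6 of 6 genotypes.

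Gli1 moved the other way. It rose by 0.63 (SE 0.11, limma adjusted p = 0.00319), from 16.4, 35.2, 16.8, 26.5, 22.2 and 11.8 CPM in replicate 1 to 25.2, 47.0, 26.6, 38.5, 31.9 and 27.1 CPM in replicate 2, and was higher in replicate 2 in 6 of 6 genotypes. Hhip rose by 0.74 (adjusted p = 0.042), higher in replicate 2 in 5 of 6 genotypes, and Gli2 and Gli3 were not called. Ptch1 and Gli1, both targets of the pathway, thus went in opposite directions between the same libraries. Of the list of 15 genes raised by Hedgehog, 10 were tested here. Among them 2 rose (Ccnd1 and Ccnd2) and 3 fell (Prdm1, Rab34 and Bcl2), near the background of 43.3%. The calls of Ptch1, Cdon, Boc and Gli1 held when any single genotype was left out. That of Smo was lost without KO, Q50, Q92 or Q111, and that of Hhip without any genotype but Q20.

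Cell type markers also differed by replicate number in mESC. Pou5f1 was 280 to 421 CPM in replicate 1 and 433 to 880 CPM in replicate 2, higher in replicate 2 in 6 of 6 genotypes. Dppa5a, another pluripotency marker, went the other way, with 592 to 1343 CPM in replicate 1 and 374 to 880 CPM in replicate 2, lower in replicate 2 in 6 of 6. The summed 10 pluripotency markers overlapped, at 2208 to 4065 CPM in replicate 1 and 2567 to 3774 CPM in replicate 2. The summed 10 neural progenitor markers, 141 to 340 CPM in replicate 1 and 195 to 553 CPM in replicate 2, were higher in replicate 2 in 6 of 6 genotypes, as was the fibroblast sum (21.7 to 69.8 and 26.9 to 97.9 CPM). The summed neuronal and early lineage markers were also higher in replicate 2 in 6 of 6. Single markers of these sums did not all move that way. Tubb3 was higher in replicate 2 in 6 of 6 and Stmn2 in 4 of 6. Rbfox3, Snap25 and Gad1 were lower there in 6 of 6, and Map2 and Syt1 in 4 of 6. Among early lineage markers, Eomes and Sox7 were higher in 6 of 6, Cdx2 in 5 and Afp in 4. Sox17 was lower in 5 of 6, and Gata6, T and Foxa2 in 4 of 6. Slc1a3 of the progenitor markers and Thy1 of the fibroblast markers were lower in 5 of 6. The summed 7 astrocyte markers were lower in replicate 2 in 5 of 6 genotypes. They were 62.6 to 90.5 CPM in replicate 1 and 16.5 to 76.2 CPM in replicate 2. In Q20 their sum was 68.8 CPM in replicate 1 and 76.2 CPM in replicate 2. Aldoc made up most of the sum in replicate 1 (51.5 to 68.0 CPM). It was lower in replicate 2 in 6 of 6 genotypes (9.20 to 36.8 CPM). Aldh1l1 was lower there in 5 of 6 and Gfap in 4 of 6. S100b, Slc1a2 and Sparcl1 were higher in replicate 2 in 4 of 6, and Aqp4 in 3 of 6. The part of these markers in the replicate differences of the Hedgehog genes was not tested.

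**Figure D4:**
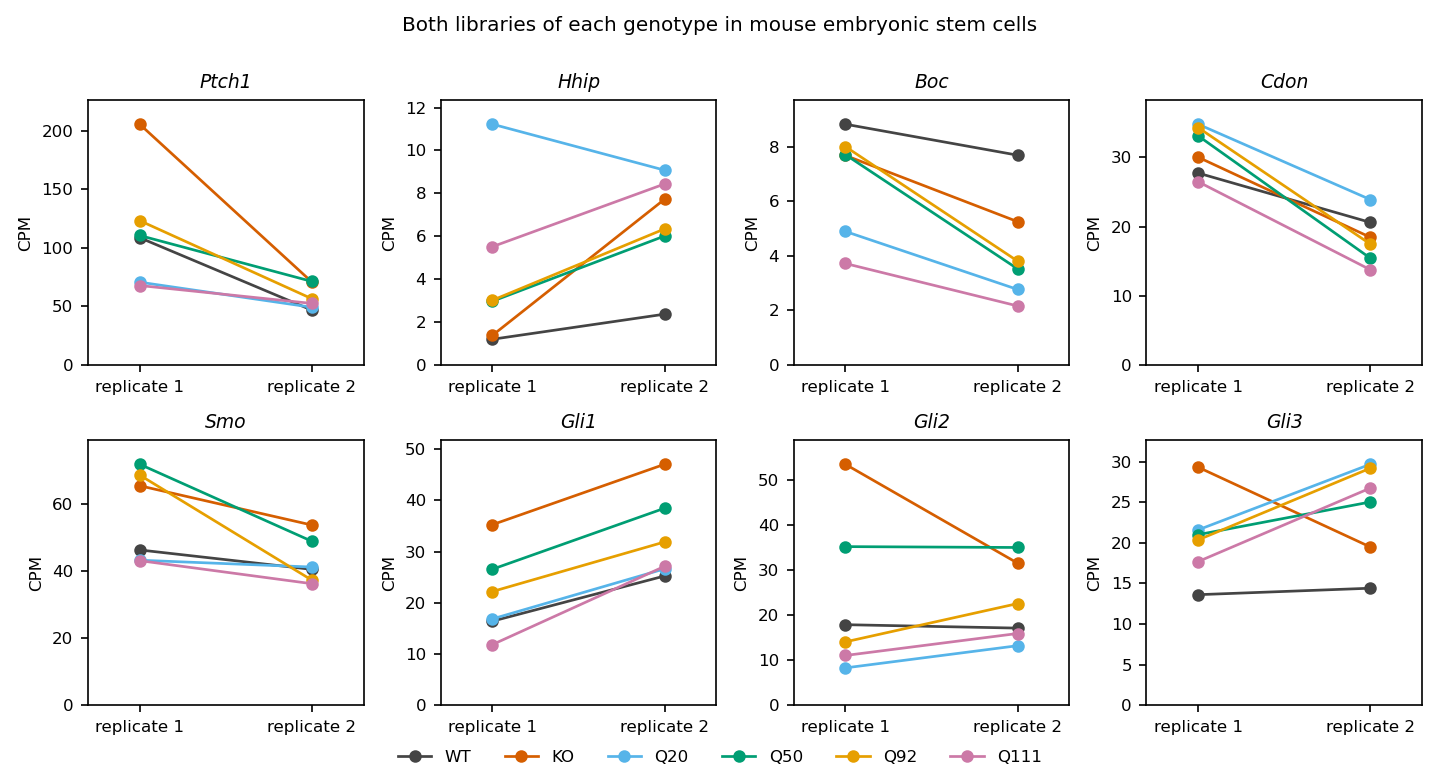
CPM of the 8 Hedgehog genes with mESC values in replicate 1 and replicate 2, with a line per genotype; each panel has its own axis from 0. Lines for Ptch1, Boc, Cdon and Smo fall in 6 of 6 genotypes, and lines for Gli1 rise in 6 of 6.

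The dependence on repeat length was compared between cell types as a difference of slopes over the 16 knock-in libraries. Of the 7 members tested in both tables, 0 were called by limma, at a background of 4.86%, and 1 had an unadjusted p under 0.05; edgeR was not run for this comparison. That member was Cdon, whose slope over 91 repeats was larger in NPC than in mESC by 2.32 (SE 0.84, limma adjusted p = 0.129).

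Genes with the pattern most like a member across the 12 libraries of a table were listed for Shh, Gli1, Ptch1 and Hhip, by Pearson's r of log2(CPM + 1). In NPC they were Rhbdf2, Tnfsf11 and Crabp2 for Shh, with r of 0.995, 0.992 and 0.991, values that rest on the 2 Q20 libraries. They were Ranbp9, Casc1 and Spag9 for Ptch1 (0.923, 0.906 and 0.906) and Ncor1, Gps2 and Bptf for Hhip (0.934, 0.911 and 0.901). In mESC the nearest genes to Gli1 were Ube3b, Ncstn and Tpr (0.971, 0.957 and 0.944), those to Ptch1 Kmt2e, Grm4 and Pikfyve (0.953, 0.953 and 0.944) and those to Hhip Bdnf, Actg1 and Rhox6 (0.945, 0.943 and 0.94). Among the members themselves, the pairs with the strongest r in mESC were Ptch1 and Smo (0.827) and Hhip and Boc (-0.814). In NPC they were Gli2 and Gli3 (-0.757) and Shh and Smo (-0.735). The value for Shh and Smo also rests on the 2 Q20 libraries, through which Shh entered the tests. These coefficients describe libraries that share lines and replicate numbers.

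The GLI consensus letters GACCACCCA were looked for on both strands of RefSeq promoters of 300 bases. They occurred in 83 of 32851 promoters (0.253%) and in 0 of the 6 member promoters in that table, those of Ptch1, Smo, Gli2, Gli3, Hhip and Cdon. That says only that these letters are not in those windows.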

How the data were processed

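The data were RNA sequencing values of 24 libraries, a pair per genotype and cell type. Per the submitters' processing notes, CASAVA 1.8, STAR and GRCm38.p6 were used; the counter and its use of strand are not given in the sources used here. The authors deposited a CPM signal, normalised within each cell type, in 1 table per cell type. Every library's values (100%) were multiples of 1 read's worth (within 0.01), which gave back the reads, and TMM factors from those reads matched the authors' scaling. Repeated identifiers were used once (4 in mESC, 1 in NPC), and gene models came from GENCODE, which held 99.63% and 99.82% of the identifiers.

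Genes with at least 1 CPM in at least 2 libraries were tested (13916 in mESC, 13206 in NPC, 12321 in both) on log2(CPM + 1) with limma 3.58.1 (R 4.3.3), two-sided, with 6 groups sharing the spread and Benjamini-Hochberg adjustment over all tested genes at 0.05. Unless another test is named, an adjusted p is limma's, and a difference is on the log2(CPM + 1) scale. Alternatives were edgeR 4.0.16 on the recovered reads (TMM, or DESeq2 1.42.0 size factors), a pseudocount of 0.25, no filter, quantile normalization, fewer libraries, another reference, the replicate number as a block and leaving out each library, where the lone library left in a group is assumed to vary like the other groups. Fits were tested on simulated data. The differences between replicates 1 and 2 correlated between groups in 15 of 15 pairs in mESC (0.25 to 0.547), so numbers pair libraries there. In NPC they correlated in 3 of 15 pairs, most between WT and KO (0.467). Named genes were the 9 members, called genes of the pathway lists and the 3 genes most like Shh, Gli1, Ptch1 and Hhip. The members and lists were chosen with earlier results of these data known. Shh ratios are from pooled reads with exact 95% intervals. An item of the lists is not reported here.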

Additional observations from a re-analysis of the deposited data

Results flagged for a closer look

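In 4 cases a member's libraries moved one way in mESC and the opposite way in NPC under the same comparison, without overlap of the groups in either cell type. Over all tested genes the groups did not overlap in 32.7% (mESC) and 70.1% (NPC) for Q50, 30.3% and 77.2% for Q92 and 22.7% and 78.2% for Q111 against Q20, and in 25% and 29.7% for KO against WT. The share of all genes that moved in opposite directions without overlap in both cell types was not computed. The 4 cases thus have no background and are not read as a trait of the members. The difference between the cell types was not tested in these cases, and the main fits made no call in either. Ptch1 in Q50 against Q20 differed by 0.581 in mESC and by -0.601 in NPC on the log2(CPM + 1) scale. Smo in KO against WT differed by 0.445 in mESC, where the library labelled KO replicate 1 did not have low Htt, and by -0.213 in NPC. Gli2 in Q92 against Q20 differed by 0.715 in mESC and by -0.64 in NPC. Hhip in Q111 against Q20 differed by -0.501 in mESC and by 0.943 in NPC.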

How the results depend on the processing

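The 0 of 8 counts in mESC held under every alternative run, except that Q20 against WT gave 2 with the replicate block. In NPC, with only the libraries of both groups in the fit, the count of called members became 1 for Q20 against WT (background 3.6%). Against Q20 it became 8 for Q50 (background 29.7%), 6 for Q92 (background 46.6%) and 5 for Q111 (background 50.8%). With WT as the reference, Q50 gave 0, Shh differed by 0.03098 in Q50, 0.2554 in Q92 and 0.002635 in Q111, and Smo by -0.01078 in Q92. The NPC slope count became 0 with 1 mean value per line (background 0.0%) and 3 with the log2 of the length (background 22.3%). It became 2 without the Q20 line (background 14.2%), where the Shh slope was 0.04504, and 0 with the replicate block (background 15.3%). The difference of slopes gave 1 (Hhip) without the Q20 line (background 1.83%). Leaving out 1 library at a time gave 0 to 2 for KO against WT, 1 to 4 for Q20 against WT, 2 to 3 for Q50, 3 throughout for Q92 and 1 to 2 for Q111 against Q20, and 0 to 2 for the NPC slope. Shh, which entered the tests through Q20, is among the members in these counts. Each fit without 1 library leaves a lone library in a group. The range of these counts is therefore not set against the share of all genes here, and is not read as support for the members. The replicate number block in NPC also ended the call of Gli3 in Q50 and over the lines. Replicate differences in NPC correlated between WT and KO (0.467), and less between Q50 and WT (0.17) or KO (0.106). With this block, KO against WT in NPC again gave 0 of 8 (background 1.1%). Over 24 results for single members, 244 of 306 alternatives kept direction and side of the threshold, 48 lost the call, 9 gained one and 5 changed sign. The causes were not tested.

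The number of all genes called depended more on the fit. In mESC it was 2 (16 with the replicate block) for KO against WT, 45 (1475) for Q20 against WT, 1 (137), 1 (64) and 0 (8) for Q50, Q92 and Q111 against Q20, and 10 (222) over the lines. In NPC it ran from 0 to 1577 around 188 for KO against WT and from 476 to 2846 around 1920 for Q20 against WT. It ran from 874 to 3927 around 2478, 1144 to 6160 around 3407 and 1569 to 6712 around 3743 for Q50, Q92 and Q111 against Q20. Over the NPC lines it ran from 3379 to 8977 around 5414, for the slope from 0 to 3171 around 2909 and for the difference of slopes from 0 to 1005 around 599. Depth limits Shh and Gli1 in NPC, at 3 to 27 reads per genotype outside Q20 for Shh and 6 to 45 reads per library for Gli1.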
